A study of Peromyscus maniculatus with 6 samples.

Results

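Genes of the NRF2 pathway and of the antioxidant enzyme systems were followed in fibroblasts of the deer mouse (Peromyscus maniculatus) under induced ER stress, the state that sets off the unfolded protein response (ER, endoplasmic reticulum). A list of 40 gene symbols was matched by name to the deposited table of 24281 genes, and 27 of them were found. All 27 passed the filter on low counts and were tested among 13503 genes. The symbols Bach1, G6pdx, Ftl, Ftl1, Fth1, Prdx1, Prdx2, Prdx6, Txn, Txn2, Gsta4, Gstm1 and Abcc1 matched no name and were not analysed here. Txn1 was found under that name.

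Primary fibroblasts were grown from ear punches of 3 deer mice of the BW stock at 4 weeks of age, animals BW35770, BW35772 and BW35773. One culture of each animal received tunicamycin for 5 h before RNA was taken, and 1 served as control, which gave 3 tunicamycin and 3 control libraries. Tunicamycin stops N-linked glycans from being made, and proteins that lack them misfold in the ER. The labels give its concentration as 5 mg per mL and do not name what control wells received. The labels name no genetic change, and each culture is the outgrowth of 1 animal's ear, with no passage number given.

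NRF2, encoded by Nfe2l2, is a transcription factor that the adaptor KEAP1 holds in the cytosol and presents for degradation. When oxidants or electrophiles modify KEAP1, NRF2 escapes, pairs with a small MAF protein and binds antioxidant response elements. Its known targets include heme oxygenase, NADPH-producing enzymes and the thioredoxin and glutathione systems. PERK, a sensor of ER stress, can also phosphorylate NRF2. NRF1, encoded by Nfe2l1, is a related factor that is made as a glycoprotein of the ER membrane and is known for driving proteasome genes.

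Libraries held 37852385 to 49352126 counts on genes. Fixed response genes were read first as a check of the treatment. Hspa5, the ER chaperone BiP, averaged 4189 ± 183 CPM in tunicamycin and 1510 ± 223 CPM in control libraries (SD, n = 3 each; CPM are counts scaled to library size with TMM factors). Ddit3, which encodes CHOP, had a log2 fold change of 3.95 ± 0.23 (SE) and Atf4, its upstream factor, one of 2.47 ± 0.15, with edgeR adjusted p = 0.000488 and 0.000507. Of 8 fibroblast markers 7 were in the table, and their summed level ran from 13235 to 14823 CPM in tunicamycin and from 13178 to 16254 CPM in control libraries. Vim alone had 7494 to 9763 CPM, and single markers differed between animals. Thy1 had 827.3 CPM with tunicamycin and 751.8 CPM without in BW35770, and 58 to 118 CPM in the other animals. Col1a1 had 1665 and 1107 CPM in BW35770, and 2555 to 3570 CPM in the others. Cartilage markers summed to 2027 to 8624 CPM with tunicamycin and 1820 to 8109 CPM in controls, with the low values in animal BW35770. Col2a1 alone had 842.4 CPM with tunicamycin and 742.6 CPM without in BW35770, and 4095 to 6260 CPM in the others. In each library of those other animals Col2a1 exceeded Col1a1, while the cartilage gene Matn1 reached at most 0.045 CPM in any library. Immune markers reached at most 153 CPM with tunicamycin and 175.2 CPM in controls, nearly all of it from Cd68, with Ptprc at 0 to 0.025 CPM. Keratinocyte, endothelial, melanocyte, muscle and Schwann markers each summed to at most 17.7 CPM in tunicamycin and 23.5 CPM in control libraries, with Krt1 and the T cell gene Cd3e at 0 throughout. In cultures of this kind fewer cells of a type and less RNA per cell cannot be told apart.

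Without a block, Mafk, 1 of the small MAF genes, was the single member of 27 that rose after 5 h of tunicamycin, and 0 fell. The test was edgeR quasi-likelihood with a Benjamini-Hochberg adjusted p under 0.05. This fit does not use the pairing of libraries by animal. The fit that does called 3 members higher and 1 lower, as given below. Among all tested genes 1.78% rose and 0.792% fell, against 3.7% and 0% of the members. At an unadjusted p under 0.05 the same test gave 4 members higher and 4 lower, beside 8.88% and 6.64% of all tested genes. DESeq2 called 3 higher and 0 lower (5.01% and 2.97% of all tested genes), and limma-voom 1 and 0 (1.61% and 0.77%). The same-numbered libraries come from 1 animal, and with the animal as a block Mafk, Mafg and Osgin1 were called higher and Hmox1 lower. That is 11.1% and 3.7% of the members, beside 3.07% and 2.4% of all tested genes. The median log2 fold change was -0.09 over the 27 members and -0.01 over all tested genes.

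**Figure D1:**
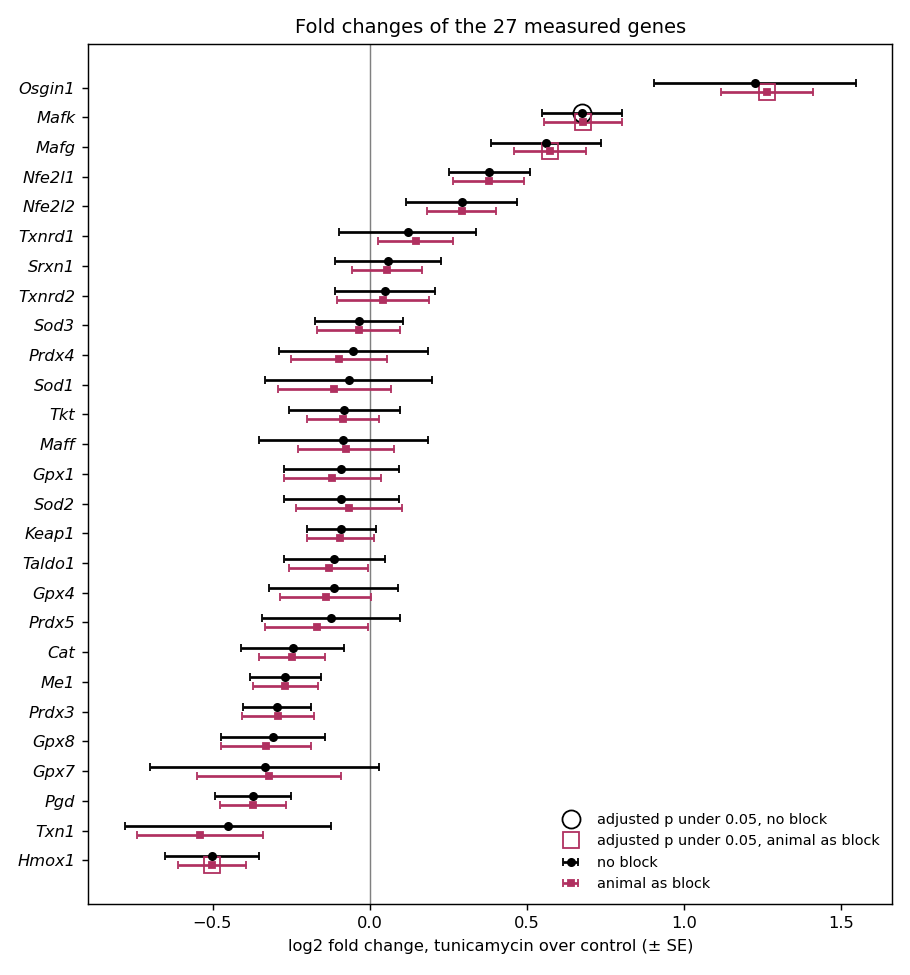
Log2 fold change of tunicamycin over control libraries with its standard error for each of the 27 genes, from the edgeR fit without a block (black circles) and with the animal as a block (red squares); open outlines mark an adjusted p under 0.05. Without the block Osgin1, Mafk and Mafg lie highest at 1.22, 0.68 and 0.56 and Hmox1 lowest at -0.50, with the block Txn1 lies lowest at -0.54, and most enzymes lie between -0.4 and 0.15.

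Levels were compared between genes per length. In RPKM (CPM divided by exon length in kilobases) the glutathione peroxidase Gpx1 stood highest, at 937 in tunicamycin and 997.3 in control libraries. Sod3, the extracellular superoxide dismutase, averaged 799 and 818.1 RPKM in tunicamycin and control libraries. Gpx4, which reduces lipid hydroperoxides, averaged 575.1 RPKM with tunicamycin and 622.6 RPKM in controls. Txn1, the cytosolic thioredoxin, averaged 373.4 and 510.5 RPKM in tunicamycin and control libraries, and Sod1, the copper-zinc superoxide dismutase, 434 and 454.7 RPKM. The factors Nfe2l2 and Nfe2l1 lay in the middle, at 169.3 and 169.5 RPKM with tunicamycin and 138.3 and 130.2 RPKM in controls. The small MAF genes were far lower, with Mafg at 10.6, Mafk at 8.75 and Maff at 7.37 RPKM in tunicamycin libraries, and at 7.21, 5.48 and 7.80 RPKM in controls. Gpx7, an ER-resident peroxidase, was the lowest member, at 2.80 RPKM with tunicamycin and 3.53 RPKM in controls. In tunicamycin libraries the ranges over libraries overlapped between Gpx1 and Sod3 and among Gpx4, Txn1 and Sod1. Within single libraries, Gpx1 exceeded Sod3 in 2 of 3 tunicamycin and in 3 of 3 control libraries, and Gpx4 exceeded Sod1 in 3 of 3 libraries of each group. Sod1 exceeded Txn1 in 3 of 3 tunicamycin libraries and in 0 of 3 controls. No test was run between genes. These values rest on the exon length in the table, which is short for Sod1, Gpx4 and Gpx1 (420, 591 and 603 bases).

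**Figure D2:**
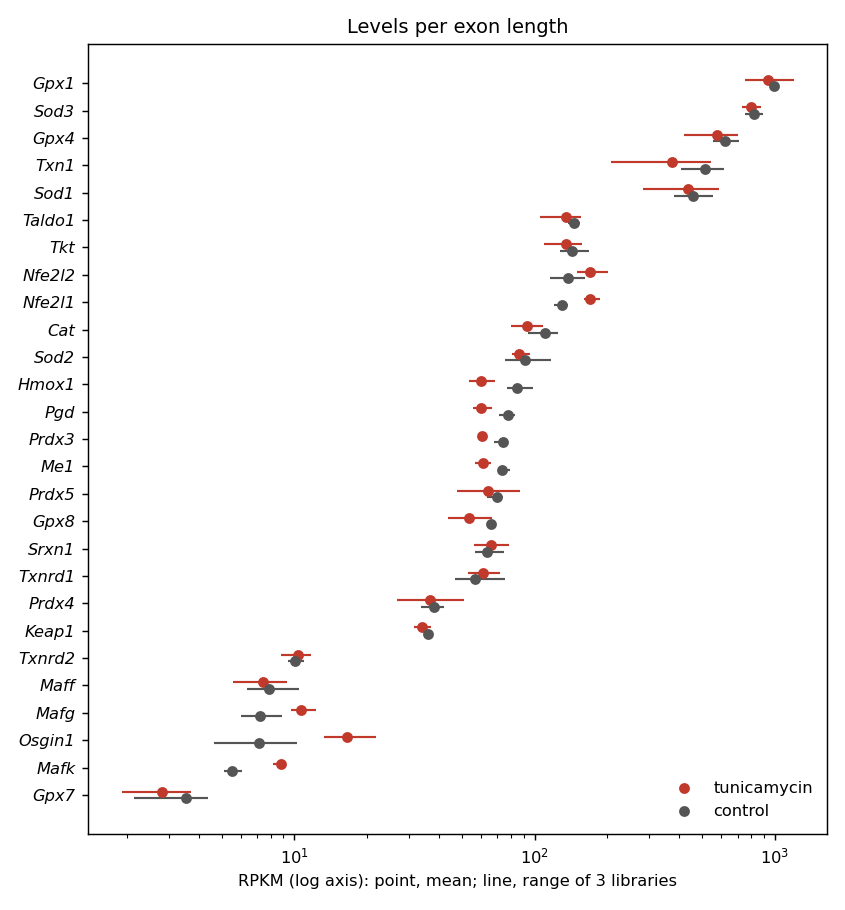
Mean level of each of the 27 genes in RPKM on a log axis, in tunicamycin (red, upper) and control (grey, lower) libraries; lines span the lowest to the highest of 3 libraries. Gpx1, Sod3, Gpx4, Txn1 and Sod1 lie above 350 RPKM and Maff, Mafk and Gpx7 below 10 RPKM in both groups, while the ranges of Mafg, Osgin1 and Mafk do not overlap between groups.

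Among the regulators, Mafk (ENSPEMG00000022450, scaffold KI615819.1, bases 629186 to 635640, 3 exons) encodes a small MAF protein, a partner that NRF2 and NRF1 need to bind DNA. It had 41.2, 42.1 and 37.6 CPM in the tunicamycin libraries of BW35770, BW35772 and BW35773, against 27.9, 24.5 and 23.3 CPM in their control libraries. Every tunicamycin library lay above every control library. Mafk thus rose by 0.68 ± 0.13 on the log2 scale (SE, edgeR adjusted p = 0.0403), and the pairs differed by 0.56, 0.78 and 0.69. Leaving out a control library ended that call, with edgeR adjusted p = 0.096 without BW35770, 0.189 without BW35772 and 0.217 without BW35773. So did leaving out the tunicamycin library of BW35770 (0.139) or BW35772 (0.0703). With the block the adjusted p was 0.0251 over all libraries and 0.269 without animal BW35770. Over 21 alternatives the log2 fold change stayed between 0.62 and 0.75 and the adjusted p ran from 9.11e-05 to 0.331.

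Mafg (ENSPEMG00000017273, scaffold KI615659.1, bases 1456770 to 1464849) encodes another small MAF protein. It had 94.2, 76.7 and 74.6 CPM with tunicamycin and 68.3, 51.9 and 46.2 CPM in controls, in the same order of animals. The groups did not overlap, although the lowest tunicamycin library lay close to the highest control. Its log2 fold change was 0.56 ± 0.18 (edgeR adjusted p = 0.17), and with the block it was called higher at 0.57 ± 0.11 (edgeR adjusted p = 0.0342). The blocked call was lost without animal BW35770 (adjusted p = 0.32) and when each library's trend with exon length was removed (0.0659). Over all alternatives the adjusted p ran from 0.0251 to 0.523. Maff, the third small MAF gene, had 18.7, 11.2 and 14.6 CPM with tunicamycin and 21, 12.7 and 13.3 CPM in controls. Its groups overlapped, and the log2 fold change was -0.08 ± 0.27 (edgeR adjusted p = 0.936).

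Nfe2l1 had 767.6, 895.3 and 766.2 CPM in tunicamycin libraries and 577.2, 656.5 and 632.8 CPM in controls. Tunicamycin libraries were all above the controls, by 0.41, 0.45 and 0.28 on the log2 scale within BW35770, BW35772 and BW35773. The log2 fold change of 0.38 ± 0.13 was not called (edgeR adjusted p = 0.204, and 0.109 with the block). In the fit with the block and without animal BW35773 it was called higher, at 0.46 (edgeR adjusted p = 0.0488, in a range of 0.0488 to 0.708 over all alternatives). That fit leaves out the smallest pair difference and called more genes higher than the blocked fit over all animals. Nfe2l2 (ENSPEMG00000023181, scaffold KI615339.1, bases 8976433 to 9003713, 5 exons) had 492 CPM in the tunicamycin library of BW35770, 375.8 in that of BW35772 and 363.7 in that of BW35773. The matching controls had 394.2, 330.1 and 281.3 CPM. Each animal's tunicamycin library was above its own control, but the groups overlapped, because BW35770 was high in both. Its log2 fold change was 0.29 ± 0.18 (edgeR adjusted p = 0.514, and 0.186 with the block).

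Keap1, which marks NRF2 for degradation, had 126.6, 107.7 and 111.8 CPM with tunicamycin and 126.2, 117.9 and 124.4 CPM in controls. The difference, a log2 fold change of -0.09 ± 0.11, was smaller than its error (edgeR adjusted p = 0.796). Taken over the 6 regulators measured, 1 rose and 0 fell without the block, 16.7% and 0%, beside 1.78% and 0.792% of all tested genes. With the block 2 were called higher and 0 lower, 33.3% and 0%, beside 3.07% and 2.4%. The regulators had a median log2 fold change of 0.34. Of the 6, 4 were higher in all 3 animals (66.7%, beside 20.7% of all tested genes), and Mafg, Nfe2l1 and Mafk among these are also the longest members.

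**Figure D3:**
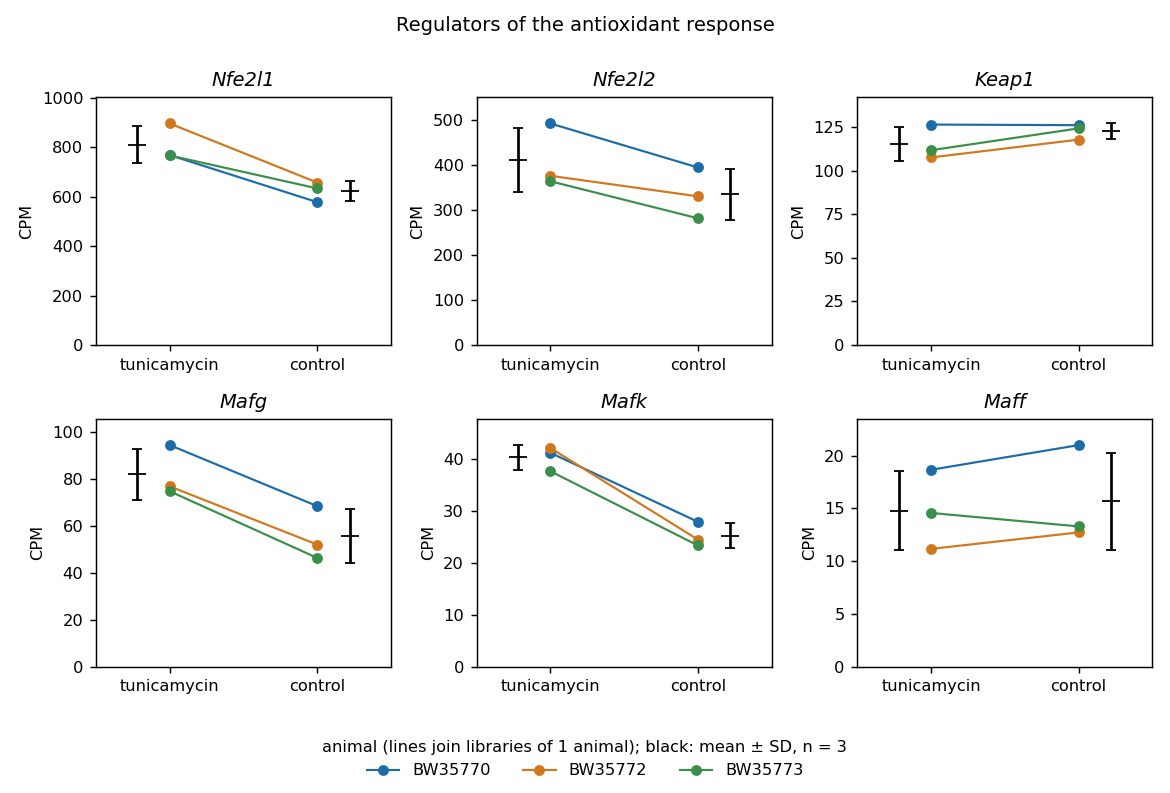
CPM of the 6 regulators in tunicamycin (left) and control (right) libraries, from 0; coloured lines join the libraries of 1 animal and black marks show the mean ± SD of 3. Mafk, Mafg and Nfe2l1 are higher in all tunicamycin libraries than in any control, Nfe2l2 is higher within each animal, and Keap1 and Maff overlap.

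Among the targets of NRF2, Osgin1 (ENSPEMG00000020010, scaffold KI615608.1, bases 4759952 to 4768796, 6 exons), an oxidative stress-induced growth inhibitor, had 43.2, 28.6 and 26.2 CPM with tunicamycin, against 20.3, 12.5 and 9.13 CPM in controls. Tunicamycin libraries all exceeded the controls, and the animals kept their order, with BW35770 highest in both groups. The log2 fold change of 1.22 ± 0.32 was the largest of the 27 and was not called (edgeR adjusted p = 0.113). The highest and lowest control differed by 2.22-fold. With the animal as a block it was called higher, at 1.27 ± 0.15 (edgeR adjusted p = 0.00486), and also by DESeq2 (adjusted p = 0.00393). The pairs differed by 1.09, 1.19 and 1.51. The blocked call was lost without animal BW35770 (adjusted p = 0.0634), and over all alternatives the adjusted p ran from 1.93e-06 to 0.427.

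Hmox1 (ENSPEMG00000012144, scaffold KI615369.1, bases 8739770 to 8744973, 6 exons) encodes heme oxygenase, which breaks down heme and is a classical NRF2 target. It had 102.4, 79.4 and 86.7 CPM with tunicamycin and 147.3, 117.9 and 115.2 CPM in controls. Every tunicamycin library lay below every control, and the pairs differed by -0.52, -0.57 and -0.41. The log2 fold change was -0.50 ± 0.15 (edgeR adjusted p = 0.151), and -0.50 ± 0.11 with the block, where it was called lower (edgeR adjusted p = 0.0435). That call was lost without animal BW35770 or BW35772 (0.472 and 0.11), and the adjusted p over all alternatives ran from 0.0125 to 0.492. Srxn1, sulfiredoxin, which repairs overoxidised peroxiredoxins, had 200.4, 143 and 164.7 CPM with tunicamycin and 191.1, 151.7 and 145.2 CPM in controls. Its groups overlapped (log2 fold change 0.06 ± 0.17, edgeR adjusted p = 0.927).

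The 4 genes of NADPH supply had log2 fold changes from -0.37 to -0.08. With or without the block, 0 of 4 passed the test in either direction. Of all tested genes 1.78% rose and 0.792% fell (3.07% and 2.4% with the block), so 0 of 4 is near those shares. At an unadjusted edgeR p under 0.05 without the block 2 were lower, beside 6.64% of all tested genes. DESeq2 and limma-voom called 0 (2.97% and 0.77% of all tested genes lower). Pgd, the second dehydrogenase of the pentose phosphate pathway, had 149.8, 131.3 and 125 CPM with tunicamycin, against 188.1, 176.2 and 160.6 CPM in controls. The groups did not overlap, and the log2 fold change was -0.37 ± 0.12 (edgeR adjusted p = 0.188, and 0.0935 with the block). Me1, the cytosolic malic enzyme, had 180, 155.2 and 166.7 CPM with tunicamycin and 215.7, 192.2 and 196.5 CPM in controls. Its groups did not overlap either (log2 fold change -0.27 ± 0.11, edgeR adjusted p = 0.313). With the block its unadjusted edgeR p was 0.0341 (adjusted 0.195). Tkt and Taldo1, of the non-oxidative branch, averaged 283.4 ± 51.3 and 179.5 ± 35 CPM with tunicamycin and 299.7 ± 48.3 and 194.1 ± 11.3 CPM in controls (SD, n = 3 each). Both overlapped between groups, with log2 fold changes of -0.08 ± 0.18 and -0.11 ± 0.16.

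**Figure D4:**
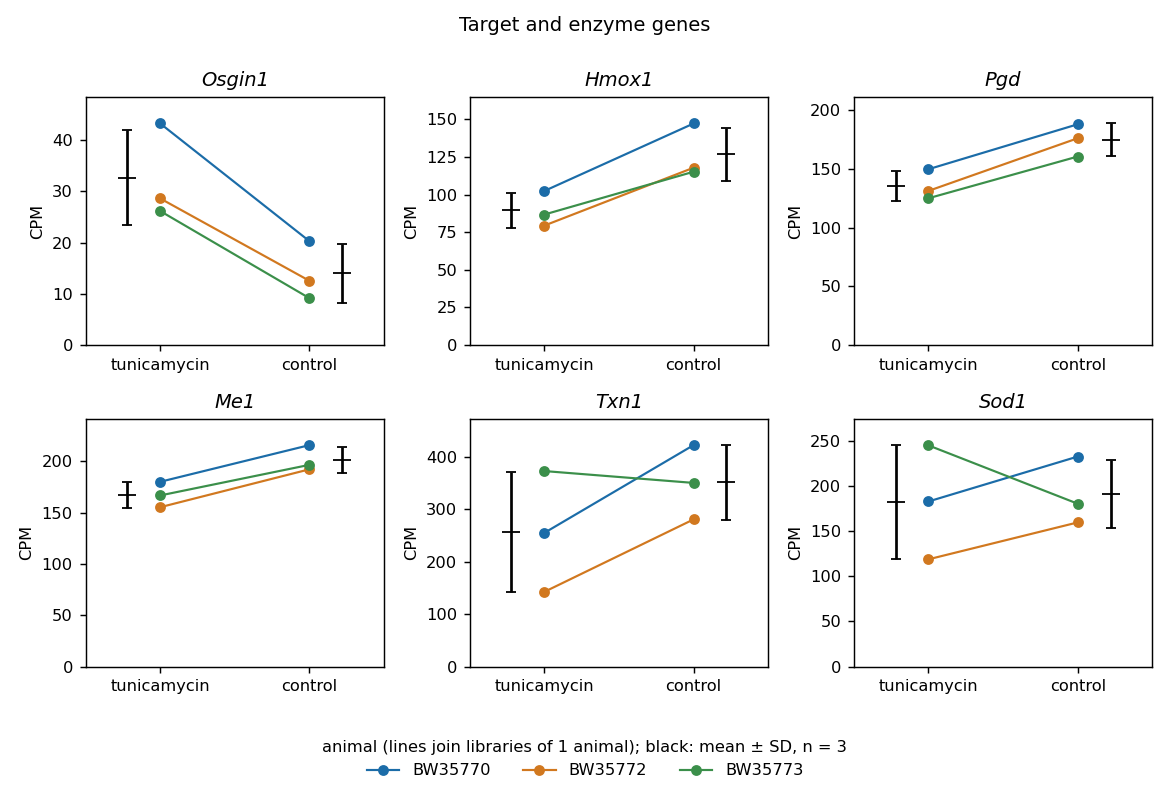
CPM of 6 target and enzyme genes in tunicamycin (left) and control (right) libraries, from 0; coloured lines join the libraries of 1 animal and black marks show the mean ± SD of 3. Osgin1 is higher and Hmox1, Pgd and Me1 are lower in all tunicamycin libraries than in any control, while Txn1 and Sod1 are lower with tunicamycin in BW35770 and BW35772 and higher in BW35773.

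In the thioredoxin system, which passes electrons from NADPH to peroxiredoxins, 0 of 3 genes were called with or without the block. That is near the shares of all tested genes, 1.78% higher and 0.792% lower (3.07% and 2.4% with the block). DESeq2 and limma-voom also called 0. Without the block 0 had an unadjusted edgeR p under 0.05, beside 8.88% of all tested genes higher and 6.64% lower. With the block the unadjusted edgeR p of Txn1 was 0.0302 (adjusted 0.183). Txn1 had 255.1, 142.6 and 373 CPM with tunicamycin and 422.5, 280.8 and 350.4 CPM in controls. Animals went apart: the pair differences were -0.73 and -0.98 in BW35770 and BW35772 and 0.09 in BW35773, and the fitted value was -0.45 ± 0.33 (edgeR adjusted p = 0.606). Without animal BW35773, and with the block, Txn1 was called lower at -0.83 (edgeR adjusted p = 0.00953, in a range of 0.00953 to 0.928 over all alternatives). That fit leaves out the animal whose Txn1 difference went the other way. It also called more genes lower than the blocked fit over all animals. Txn1, with 688 exon bases, is among the short genes described below. Txnrd1, the cytosolic thioredoxin reductase, averaged 217.4 ± 35 CPM with tunicamycin and 199.9 ± 57.9 CPM in controls. Txnrd2, its mitochondrial counterpart, averaged 20.3 ± 2.91 and 19.6 ± 1.58 CPM in tunicamycin and control libraries (log2 fold change 0.05 ± 0.16). Exons of Txnrd2 overlap those of a pair of unnamed genes on the other strand.

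Peroxiredoxins reduce hydrogen peroxide, and 0 of the 3 measured were called with or without the block. That is near the shares of all tested genes, 1.78% higher and 0.792% lower (3.07% and 2.4% with the block). DESeq2 and limma-voom also called 0. Prdx3 was lower at an unadjusted edgeR p under 0.05, beside 6.64% of all tested genes lower. With the block its unadjusted edgeR p was 0.036 (adjusted 0.2). Prdx3, the mitochondrial peroxiredoxin, had 72, 69.1 and 71.4 CPM with tunicamycin and 79.3, 90.6 and 90.8 CPM in controls. Every tunicamycin library lay below every control, and the fitted difference was -0.30 ± 0.11 on the log2 scale (edgeR adjusted p = 0.241). Prdx4, the peroxiredoxin of the ER lumen, had 26.7, 32.3 and 50.6 CPM with tunicamycin and 33.5, 38.2 and 41.9 CPM in controls. It differed by -0.33 and -0.24 in BW35770 and BW35772 and by 0.27 in BW35773 (log2 fold change -0.05 ± 0.24, edgeR adjusted p = 0.957). Prdx5 averaged 57.1 ± 18.5 CPM with tunicamycin and 62.1 ± 4.79 CPM in controls, with the same split between animals.

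Of the 4 glutathione peroxidases 0 were called over all libraries, with or without the block. That is near the shares of all tested genes, 1.78% higher and 0.792% lower (3.07% and 2.4% with the block). DESeq2 and limma-voom also called 0. Without the block 0 had an unadjusted edgeR p under 0.05, beside 8.88% of all tested genes higher and 6.64% lower. Gpx7 and Gpx8, which reside in the ER and can use peroxide made during disulfide formation, lay at 3.98 ± 1.28 and 71.3 ± 16 CPM with tunicamycin and 5.03 ± 1.72 and 88.3 ± 2.94 CPM in controls. Their log2 fold changes were -0.33 ± 0.36 and -0.31 ± 0.17 (edgeR adjusted p = 0.764 and 0.444). Gpx7 rests on the fewest reads of any member, 109 to 247 counts per library. Gpx8 was called lower in the fit with the block and without animal BW35773 (edgeR adjusted p = 0.0343, in a range of 0.0343 to 0.862 over all alternatives). Its pair differences were -0.47, -0.55 and 0.03, the last in the animal left out. That fit also called more genes lower than the blocked fit over all animals. Gpx1 had 518.2, 452.6 and 724.4 CPM with tunicamycin and 623, 588.9 and 592.3 CPM in controls, so that its controls were tightly grouped and its tunicamycin libraries lay on both sides of them. Gpx4 averaged 339.9 ± 85.9 CPM with tunicamycin and 367.9 ± 47.2 CPM in controls.

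For the superoxide dismutases and catalase, again 0 of 4 genes were called with or without the block. That is near the shares of all tested genes, 1.78% higher and 0.792% lower (3.07% and 2.4% with the block). DESeq2 and limma-voom also called 0. Without the block 0 had an unadjusted edgeR p under 0.05, beside 8.88% of all tested genes higher and 6.64% lower. Sod3 was the most counted member, with 57900 to 71609 counts in tunicamycin and 54642 to 62405 counts in control libraries. It averaged 1454 ± 135 and 1489 ± 129 CPM in the same order (log2 fold change -0.03 ± 0.14, edgeR adjusted p = 0.951). Sod1 had 182.9, 118.9 and 245.1 CPM with tunicamycin and 232.7, 159.8 and 180.4 CPM in controls. It was lower with tunicamycin in BW35770 and BW35772 and higher in BW35773, by -0.35, -0.43 and 0.44 on the log2 scale. Sod2, the mitochondrial manganese enzyme, averaged 105.5 ± 10.3 CPM with tunicamycin and 112.3 ± 27.9 CPM in controls. Cat, which decomposes hydrogen peroxide in peroxisomes, was lower in each animal, by -0.21, -0.29 and -0.24, with overlapping groups (240.5 ± 38.1 CPM with tunicamycin, 285 ± 41.2 CPM in controls, edgeR adjusted p = 0.562). With the block its unadjusted edgeR p was 0.0497 (adjusted 0.238).

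Exon length moved with these differences. Of the 27 genes 6 had exons under 1000 bases in total, namely Txn1, Prdx4, Prdx5, Gpx1, Gpx4 and Sod1. All 6 were lower with tunicamycin in BW35770 and in BW35772 and all 6 were higher in BW35773, with median log2 differences of -0.34, -0.41 and 0.28. The 2375 tested genes of that length had medians of -0.29, -0.44 and 0.15 in the same animals, and longer genes 0.01, 0.02 and -0.03. Spearman's rho between length and difference over the 27 genes was 0.66, 0.67 and -0.02 in BW35770, BW35772 and BW35773, and 0.28, 0.33 and -0.23 over all tested genes. These are correlations across genes that share a pair of libraries. The longest members, Mafg at 7694, Nfe2l1 at 4777 and Mafk at 4606 bases, were higher in all 3 animals. When each library's trend with exon length was removed, Mafk was still called (log2 fold change 0.62, edgeR adjusted p = 0.0397, and 0.0122 with the block). In the blocked fit with that correction Osgin1 was called higher at 1.25 (adjusted p = 0.000545), Hmox1 lower at -0.48 (0.0125) and Pgd lower (0.0276). Sod1, Gpx1, Gpx4 and Prdx4 changed sign under it, to 0.14, 0.09, 0.07 and 0.03 without the block. What lay behind the length trend was not tested.

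**Figure D5:**
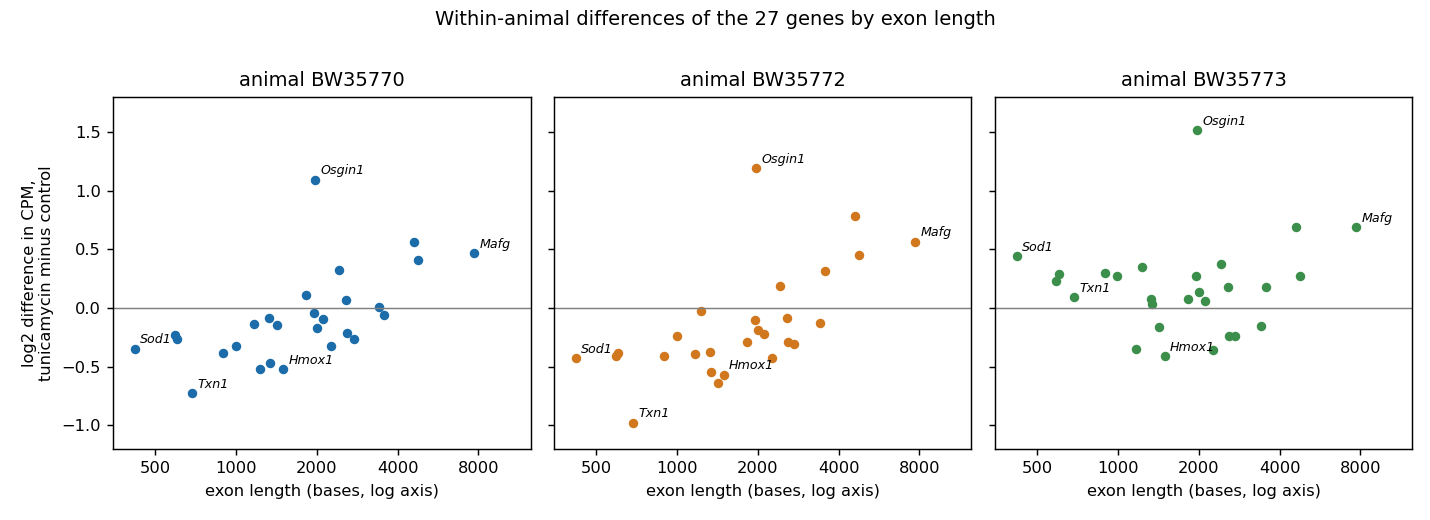
Log2 difference in CPM of tunicamycin minus control within each animal for the 27 genes, against exon length in bases on a log axis. Short genes such as Sod1 and Txn1 lie below 0 in BW35770 and BW35772 and above it in BW35773, whereas Osgin1 and Mafg lie above 0 and Hmox1 below 0 in all 3.

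Direction across animals gave a similar picture. Of the 27 genes 5 were higher and 6 lower with tunicamycin in all 3 pairs, 18.5% and 22.2%, beside 20.7% and 21.8% of all tested genes. Groups without overlap numbered 4 above (Nfe2l1, Mafg, Mafk and Osgin1) and 4 below (Hmox1, Pgd, Me1 and Prdx3), 14.8% each, beside 12.3% and 9.98% of all tested genes. Both shares are near those of all tested genes. Median differences over the 27 genes were -0.15, -0.29 and 0.18 in BW35770, BW35772 and BW35773, beside -0.03, -0.03 and -0.004 over all tested genes.

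Other genes of the pathway were read from a list of 65 further NRF2 regulators, NRF2 targets and glutathione or thioredoxin enzymes, of which 51 were in the table and 47 tested. Of these 1 rose and 0 fell, 2.13% and 0%, beside 1.78% and 0.792% of all tested genes. At an unadjusted edgeR p under 0.05, 3 were higher and 7 lower, beside 8.88% and 6.64% of all tested genes. DESeq2 called 3 higher and 4 lower (5.01% and 2.97% of all tested genes), and limma-voom 0 and 0 (1.61% and 0.77%). The median log2 fold change of the list was -0.11. The gene that rose was Slc7a11, the cystine carrier that feeds glutathione synthesis and is a target of both NRF2 and ATF4. It had 3.83, 11.4 and 6.76 CPM with tunicamycin and 1.61, 1.81 and 1.40 CPM in controls (log2 fold change 2.19 ± 0.41, edgeR adjusted p = 0.0402). Its call ended in limma-voom (0.0995), without any 1 control library (0.145 to 0.202) and when BW35772 (0.0653) or BW35773 (0.0562) lost its tunicamycin library. Nqo1, the quinone reductase widely used to read NRF2 activity, was not called with or without the block. It had 303.5, 216.8 and 276.2 CPM with tunicamycin and 249.7, 161.6 and 174.6 CPM in controls (log2 fold change 0.44 ± 0.20, edgeR adjusted p = 0.354). Nqo1 was higher with tunicamycin in each animal, by 0.28, 0.42 and 0.66. With the block its value was 0.46 ± 0.12 (edgeR adjusted p = 0.0779). Gclc and Gclm, the subunits of the rate-limiting enzyme of glutathione synthesis, had log2 fold changes of 0.09 ± 0.24 and -0.11 ± 0.15. Nqo1, Gclc and Gclm were singled out after their values were seen.

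With the animal as a block 3 genes of that list were called higher and 3 lower. That is 6.38% each of the 47 tested, beside 3.07% and 2.4% of all tested genes. Besides Slc7a11 the higher ones were Txnip, an inhibitor of thioredoxin, at 1.09 ± 0.12 (edgeR adjusted p = 0.00416), and Aldh3a1, an aldehyde dehydrogenase that is also a target of the aryl hydrocarbon receptor, at 1.64 ± 0.15 (0.00157). The lower ones were Slc40a1, the iron exporter ferroportin, at -0.91 ± 0.11 (0.00511), Gstm5, a glutathione transferase, at -0.80 ± 0.14 (0.0208), and Rbx1 at -1.0004 ± 0.19 (0.027). Without animal BW35770 the blocked adjusted p was 0.0256 for Slc7a11, 0.015 for Aldh3a1, 0.0706 for Txnip, 0.11 for Slc40a1, 0.282 for Gstm5 and 0.293 for Rbx1. RBX1 is the RING subunit of the ligase with which KEAP1 marks NRF2. Rbx1 and Gstm5 have exons of 255 and 889 bases, in the length class with negative medians in BW35770 and BW35772. In the blocked fit with the length trend removed they were still called lower, Rbx1 at -0.70 (edgeR adjusted p = 0.00981) and Gstm5 at -0.67 (0.00276), while without the block the values were -0.70 (0.0273) and -0.66 (0.096). Of 33 proteasome genes, known in other mammals as targets of NRF1, 24 were in the table. Of those 0 rose and 0 fell, beside 1.78% and 0.792% of all tested genes. At an unadjusted edgeR p under 0.05, 1 was lower, and DESeq2 called 1 lower and limma-voom 0. The shares of all tested genes lower there were 6.64%, 2.97% and 0.77%. Their median log2 fold change was -0.09. Psma2, a subunit of the catalytic core, was lower with the block (-0.81 ± 0.17, edgeR adjusted p = 0.0402, and 0.385 without animal BW35770). It was the 1 proteasome gene called there, 4.17%, beside 2.4% of all tested genes lower. With the length trend removed Psma2 was called lower at -0.75 (edgeR adjusted p = 0.0427), and at -0.76 with the block (0.00635).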

How the data were processed

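The table the authors deposited holds raw read counts, 1 row per gene and 1 column per library. STAR 2.6.1, SAMtools 1.6, featureCounts and Subread are named in the submitters' processing notes, and the library kit was directional per the labels' protocols. Neither the genome build and annotation release nor the rule for multi-mapping reads is given in the sources used here. A gene with a near-identical copy could therefore have gained or lost reads. Exon length is the deposited column of exon bases, and coordinates are as deposited.

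Genes were kept by filterByExpr (minimum count 10, minimum total 15), which left 13503, and scaled by TMM. The edgeR 4.0.16 quasi-likelihood test (R 4.3.3, two-sided) compared 3 tunicamycin with 3 control libraries, with Benjamini-Hochberg adjustment over all tested genes at 0.05. "Rose", "fell" and "called" mean past that threshold, in the fit without the block unless another fit is named. SE is the log2 fold change divided by the square root of F. Pair differences use log2 CPM with a prior count of 2. DESeq2 1.42.0, limma-voom (limma 3.58.1), other scalings and filters, and leaving out libraries or animals were alternatives. Removal of the length trend (lowess, span 0.5) was added after seeing the data.

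Sample titles name the animal, so same-numbered libraries are pairs. Their deviations from group means correlated at 0.66, 0.41 and 0.22 across genes in BW35770, BW35772 and BW35773, and the fit with the animal as a block is printed where it changes a call. No library was a copy of another (chi-square per degree of freedom 34 to 309.6 between libraries). On simulated counts for this comparison (13354 genes) the step called 80% of genes changed by 2 on the log2 scale, 45.5% of those changed by 1, 1.52% of those changed by 0.5 and 0.0608% of unchanged genes.

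The members, the lists and the tests were chosen with earlier results of these data known. Members called in either fit and the regulators are shown per library, and other members so shown were chosen after their values were seen.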

Additional observations from a re-analysis of the deposited data

How the results depend on the processing

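Counts depended on whether animals were paired and on which libraries were used. The replicate block gave 3 members higher and 1 lower, 415 and 324 genes in all and 3 and 3 further pathway genes. Leaving out 1 animal in the blocked fit gave 0, 3 and 4 members higher and 0, 0 and 3 lower without BW35770, BW35772 and BW35773. In the same order 74, 497 and 806 genes were higher in all and 37, 451 and 826 lower, with 2, 3 and 3 further pathway genes higher and 0, 4 and 6 lower. DESeq2 gave 3 members higher, 676 genes higher and 401 lower in all and 3 and 4 further pathway genes. Removing the length trend gave 190 genes lower in all and 1 further pathway gene lower. With the replicate block it gave 2 members higher and 2 lower, 724 and 749 genes in all and 5 and 6 further pathway genes. Limma-voom called 0 further pathway genes higher. Why these counts moved was not tested. The simulation called 45.5% of 2-fold changes in the fit without the block. It held no animal effect and no length trend, so it gives no measure of the other fits.

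Length-trend removal turned log2 fold changes positive for Sod1 (0.141, and 0.148 with the block), Gpx1 (0.0908 and 0.0903), Gpx4 (0.0727 and 0.072) and Prdx4 (0.0261 and 0.00652). In blocked fits signs turned for Prdx4, Sod1 and Sod2 without BW35770 (0.0164, 0.00836 and 0.16), for Gpx1, Sod1 and Sod3 without BW35772 (0.0117, 0.0465 and 0.0945) and for Txnrd2 without BW35773 (-0.0452).

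Over 9 unblocked fits that left out a library or an animal, members higher ran from 0 to 1 and members lower stayed at 0. Genes higher in all ran from 20 to 313 and lower from 3 to 251, and further pathway genes higher from 0 to 1 and lower from 0 to 2. The members' median ran from -0.219 to 0.0602. Log2 fold changes that turned sign there ran from -0.285 to 0.185 for Maff, -0.0793 to 0.19 for Srxn1, -0.212 to 0.0634 for Tkt, -0.205 to 0.0514 for Taldo1, -0.0111 to 0.385 for Txnrd1 and -0.0421 to 0.171 for Txnrd2. They ran from -0.34 to 0.131 for Prdx4, -0.395 to 0.0608 for Prdx5, -0.292 to 0.0602 for Gpx1, -0.28 to 0.0852 for Gpx4, -0.349 to 0.179 for Sod1, -0.267 to 0.164 for Sod2 and -0.111 to 0.0952 for Sod3. The other 14 members kept their direction in all 21 alternatives. Counting error limits Gpx7 most among the members.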

Other observations

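Levels of these genes also differed between animals. In control libraries 22 of the 27 genes were highest in animal BW35770, beside 42.2% of all tested genes, and in tunicamycin libraries 15 of 27 were, beside 29.6%. For 12 of 27 genes, Nfe2l2, Mafg, Osgin1 and Hmox1 among them, BW35770 was highest in both groups, beside 18.8% of all tested genes. Txnrd1 had 255.8 CPM in the tunicamycin library of BW35770, against 266.7 CPM in its control, while BW35772 had 209.3 and 168 CPM and BW35773 187.1 and 164.9 CPM in tunicamycin and control libraries. The summed cartilage markers were lowest in the same animal, and their part in this difference was not tested.

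Gsr, glutathione reductase, separated animals and not treatments, and was chosen after its values were seen. It had 49.6, 74.7 and 19.1 CPM in the tunicamycin libraries of BW35770, BW35772 and BW35773, against 62.5, 63.1 and 18.8 CPM in their controls. Its log2 fold change was -0.01 ± 0.56 (edgeR adjusted p = 0.996), and both libraries of BW35773 lay below the rest.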
